A study of Homo sapiens with 9 samples.

Results

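Gene expression under the con guide was compared, gene by gene, with expression under the non-target guide in HEK293T, a cell line of human embryonic kidney origin. The comparison uses 4 of the 9 libraries of the series, 2 for each guide, and was chosen by the guide named in the sample titles. All 4 are labelled as holding the FHY1-M3 construct and were depleted of ribosomal RNA. FHY1 is a plant protein that binds the red and far-red light receptor phytochrome A, and the series concerns control of the RNA mark N6-methyladenosine (m6A) by such light. The labels give neither the sequence of a guide nor the light or duration for a culture. The titles say con_sgRNA, while the table heads the same columns con_ACTB_sgRNA, so the content of the con guide is uncertain. Nothing says that the replicates were separate cultures, so the p-values measure only the spread between libraries. The 2 ACTB sgRNA libraries, which carry the same construct, entered the fit only to estimate that spread.

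Transcription factors that set up a lineage, such as homeobox, forkhead and basic helix-loop-helix (bHLH) proteins, bind DNA and are normally active in a few embryonic tissues. In most other cells their genes are silent and often held by Polycomb complexes. Kidney-derived HEK293T cells express many HOX genes and neurofilaments, but few factors of blood, muscle or forebrain.

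The con libraries held 3802681 and 3752727 counts and the non-target libraries 3714910 and 2900021. Each value is a count of reads assigned to a gene. Low values in these 4 libraries were mostly even (93% to 95% of those from 1 to 20), as where both mates of a pair are counted, so the intervals and floors given here cover no more than counting error and are too narrow if mates were counted apart. The spread within a guide exceeded that of sampling, at a chi-square over its degrees of freedom of 3.33 for con and 5.12 for non-target. These values use counts halved to read pairs, for genes above a low-count limit. Levels are given in CPM, a count divided by its TMM-adjusted library total and multiplied by 1e6, and a log2 fold change is con minus non-target. Of 19969 genes, 12808 had enough counts to be tested, and 22 of them (0.172%) passed a Benjamini-Hochberg adjusted p of 0.05 in the edgeR quasi-likelihood test. With the con guide 21 were lower (0.164%) and 1 was higher (0.00781%). Of the 21, 15 had no count in either con library, 4 had 1 to 3 counts in all, and HOXC12 and NEUROD2 had 4 and 8. Together the 21 took 0.0795% and 0.0708% of the counts in the non-target libraries and 0.00021% and 0.000266% in the con libraries. Their non-target means ran from 14.2 to 117 CPM, with a median of 29.7 CPM against 38.4 CPM for all genes tested. Within the non-target pair, the ratio of replicate 1 to replicate 2 ran from 0.714 to 1.85 for these genes, with a median of 1.15. Each of the 21 was thus present in both non-target libraries and at or near 0 in both con libraries. In bulk RNA, fewer cells with a transcript and less transcript per cell cannot be told apart.

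**Figure D1:**
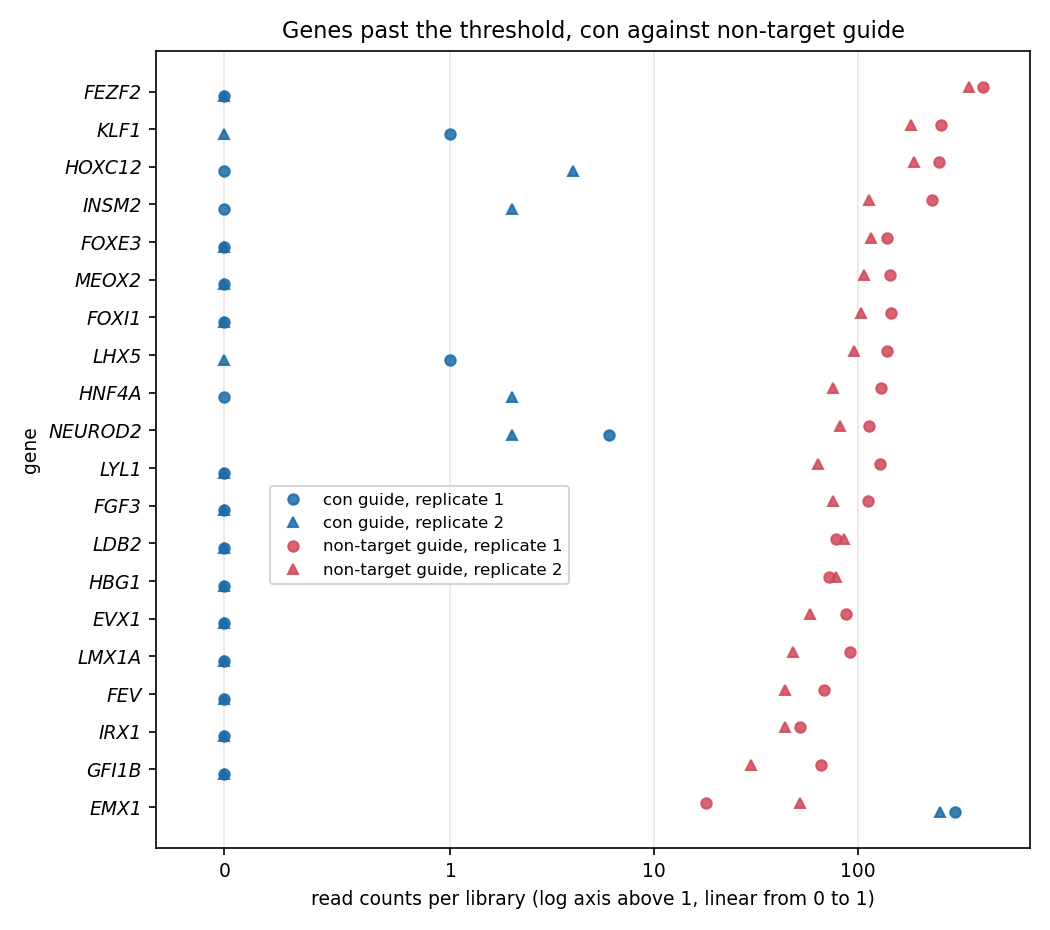
Read counts of 20 genes past the threshold (rows) in each con (blue) and non-target (red) library, with circles for replicate 1 and triangles for replicate 2, on an axis that is logarithmic above 1. The con libraries lie between 0 and 6 counts for the 19 lower genes shown, while the non-target libraries lie between 30 and 412, and EMX1 runs the other way.

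The lower genes are described by their known roles, a grouping made after they were called and not tested. FEZF2, a zinc finger factor of forebrain and corticospinal neurons (chromosome 3, 62369681 to 62373550, GRCh38.p14), held 0 counts in both con libraries and 412 and 354 in the non-target libraries. That is 117 ± 7.29 CPM with the non-target guide (SD, n = 2), and at least 296-fold lower with the con guide when 3 counts over both con libraries are taken as the floor (adjusted p = 1.42e-13). INSM2, a zinc finger factor related to the neuroendocrine regulator INSM1, had 0 and 2 counts against 232 and 114, a ratio of 199 (95% counting interval 54.7 to 1651, adjusted p = 5.68e-08). Both con libraries lay below both non-target libraries for either gene, as for 17.5% of all genes tested, in the same counts that gave the calls. LHX5, a LIM-homeobox factor of the early forebrain, had 1 and 0 counts against 140 and 96, a ratio of 272 (counting interval 48.3 to 10778, adjusted p = 5.24e-06). LMX1A, a LIM-homeobox factor of dopaminergic neurons and the roof plate, had no con count against 92 and 48, at least 52.5-fold lower (adjusted p = 0.00152). FEV, an ETS factor of serotonergic neurons, had none against 68 and 44, at least 42.5-fold lower (adjusted p = 0.0118). NEUROD2, a bHLH factor of maturing neurons, was present at a trace with the con guide, at 6 and 2 counts against 114 and 82. Its means were 1.05 ± 0.74 and 29.7 ± 1.88 CPM (log2 -4.77, SE 0.91, adjusted p = 0.00304), with log2 values of -5.71 and -4.2 without con replicate 1 and 2.

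Of the lower genes, KLF1, LYL1 and GFI1B encode factors of blood formation. KLF1, which drives the adult globin programme in red cell precursors (chromosome 19, 12884422 to 12887201), had 1 and 0 counts with the con guide and 258 and 182 with the non-target guide. The ratio of 507 has a counting interval of 90.5 to 20055 (adjusted p = 6.41e-10). LYL1, a bHLH factor of blood stem cells, had no con count against 128 and 64, at least 71.8-fold lower (adjusted p = 3.44e-05). For KLF1 and LYL1 both con libraries also lay below both non-target libraries, as for 17.5% of all genes tested. That order comes from the same counts that gave the calls and adds nothing to them. The non-target replicates differ for LYL1, at 34.8 and 22.1 CPM. GFI1B, a repressor in red cell and platelet precursors, had no con count against 66 and 30, at least 35.7-fold lower (adjusted p = 0.00943). HBG1, a fetal gamma-globin gene and not a transcription factor, had none against 72 and 78, at least 58.7-fold lower (adjusted p = 0.0005). HBG2 is nearly identical to HBG1, so reads of the pair cannot be told apart with certainty, and HBG2 was counted at 0 in all 4 libraries. Among the erythroid marker genes, HBG2, HBA2, HBB and GYPB were at 0 throughout. A few reads went the other way from HBG1. HBA1 held 0 and 4 counts against 0 and 0, EPB42 6 and 0 against 0 and 0, and ALAS2 0 and 8 against 0 and 2. The summed erythroid list stood at 1.58 and 3.19 CPM with the con guide and at 19.6 and 27.6 CPM with the non-target guide, and only HBG1 was lower in both con libraries than in both non-target ones.

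Homeobox and forkhead genes of mesoderm, axis and ectoderm formed the next set. MEOX2, a homeobox factor of somites and limb muscle, had no con count against 144 and 108 (at least 96.4-fold lower, adjusted p = 5.48e-07). EVX1, a homeobox factor of the primitive streak and spinal cord, had none against 88 and 58 (at least 55.5-fold lower, adjusted p = 0.000846). IRX1, of the Iroquois homeobox family, had none against 52 and 44 (at least 37-fold lower, adjusted p = 0.0465), the call nearest to the threshold. These 3 genes were therefore seen in each non-target library and in neither con library. HOXC12, at the posterior end of the HOXC cluster, had 0 and 4 counts against 250 and 188. Its means were 0.531 ± 0.751 and 66.5 ± 2.13 CPM (log2 -6.88, SE 0.79, 95% interval -8.46 to -5.3, adjusted p = 7.93e-08). The log2 value was -5.92 without con replicate 1, and without con replicate 2, which held the 4 counts, the con guide stood at 0. FOXE3, a forkhead factor of the lens, had no con count against 140 and 116 (at least 98.6-fold lower, adjusted p = 5.48e-07). FOXI1, a forkhead factor of the inner ear and of ion-transporting cells, had none against 146 and 104 (at least 95.4-fold lower, adjusted p = 5.65e-07). The forkhead pair stood at almost the same non-target level, at 39.1 ± 1.43 CPM for FOXE3 and 37.8 ± 2.66 CPM for FOXI1.

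The remaining lower genes act in endoderm, signalling and cofactor roles. HNF4A, a nuclear receptor of liver and gut, had 0 and 2 counts against 130 and 76, a ratio of 119 (counting interval 32.4 to 986, adjusted p = 8.41e-05). FGF3, a secreted growth factor of ear and tooth development, had no con count against 112 and 76 (at least 71.5-fold lower, adjusted p = 3.44e-05). LDB2, a cofactor that bridges LIM-domain proteins, had none against 78 and 86 (at least 64.2-fold lower, adjusted p = 0.00016). For all 3, both con libraries lay below both non-target libraries, as for 17.5% of all genes tested. That order comes from the same counts that gave the calls and adds nothing to them. KDM5D, a histone demethylase gene of the Y chromosome, was also lower. The measured genes on either side of it were at 0 in all 4 libraries, and the origin of its reads was not tested.

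EMX1 was the gene that was higher with the con guide. It encodes a homeobox factor of the developing cerebral cortex (chromosome 2, 72916189 to 72934891). Its counts were 302 and 253 with the con guide and 18 and 52 with the non-target guide, or 79.4 and 67.2 against 4.89 and 18 CPM. Both con libraries lay above both non-target libraries, as for 17.3% of all genes tested. The non-target replicates differed more from each other than the con replicates did. The means were 73.3 ± 8.66 and 11.4 ± 9.24 CPM (log2 2.71, SE 0.39, 95% interval 1.92 to 3.5, adjusted p = 1.58e-05). The size rests on the non-target library used: leaving out non-target replicate 1 gave a log2 value of 2.03 (adjusted p = 0.0176), and leaving out replicate 2 gave 3.9 (adjusted p = 3.75e-06). In the 3 input libraries of the series EMX1 held 351, 292 and 305 counts, or 1002, 453 and 779 CPM on their totals of 350413, 643954 and 391710. The 21 lower genes held 17 counts in those inputs together, and 16 of the 21 held none. Scaled to the input totals, the non-target level would give 1048 counts if the libraries were of the same kind. The inputs are much shallower libraries whose construct and guide the labels do not state. They were left out of the main fit as a different kind of library, so these levels are not compared like for like.

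**Figure D2:**
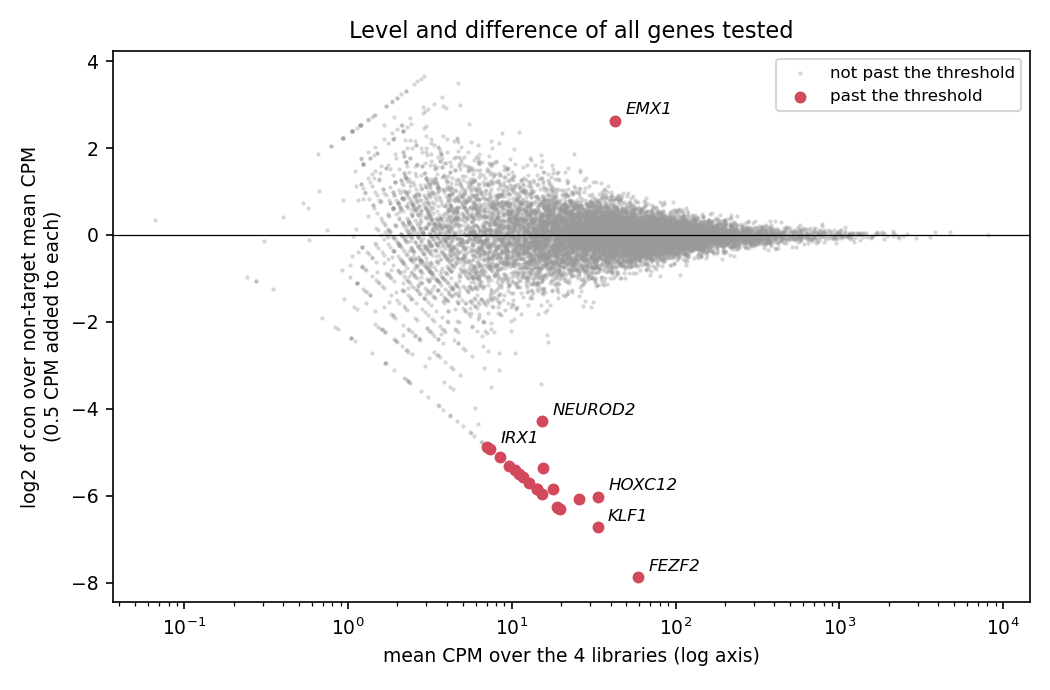
Each point is 1 of the 12808 tested genes, placed by its mean CPM over the 4 libraries (log axis) and by the log2 of con over non-target mean CPM with 0.5 CPM added to each, and red marks genes past the threshold. The 21 lower genes lie along the lower edge and EMX1 lies above the other genes of its level, while the spread of the other genes narrows as their level grows.

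Promoter sequences were examined for shared features. Of the 21 lower genes, 14 had an upstream sequence in the RefSeq promoter table (GRCh38.p14), and the first entry was used where a gene had more than one. In the 250 bases before the transcription start these held 4 to 30 CG dinucleotides, the sites of DNA methylation, with a median of 17.5. The median was 21 for the 10133 tested genes with an entry and 11 for all 35116 entries. At least 10 CG were found in 11 of the 14 and in 86.4% of the tested genes. TATAAA, searched on both strands, was in 2 of the 14 (MEOX2 and INSM2), in 5.05% of the tested genes and in 10.7% of all entries. GATAA, on either strand, was in 6 of the 14, 12% of the tested genes and 20.4% of all entries, and CCAAT in 7 of the 14, 35% and 32%. CACCC was in 7 of the 14, 58.1% and 54.7%. The 14 thus range from CG-poor to CG-rich, and none of these motifs was found in all of them. The upstream sequences of KLF1 (fewest CG of the 14, chr19:12887202-12887451), MEOX2 (near the median, chr7:15686684-15686933) and INSM2 (most, chr14:35533914-35534163) are shown to span that range. They are written 5′ to 3′ on the gene's strand, minus for KLF1 and MEOX2 and plus for INSM2, with CG in capitals.
KLF1: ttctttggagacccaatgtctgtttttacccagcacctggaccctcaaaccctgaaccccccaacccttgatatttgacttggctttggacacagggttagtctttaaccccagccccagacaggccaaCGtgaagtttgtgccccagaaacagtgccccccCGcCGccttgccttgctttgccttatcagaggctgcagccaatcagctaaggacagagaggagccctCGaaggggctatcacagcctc
MEOX2: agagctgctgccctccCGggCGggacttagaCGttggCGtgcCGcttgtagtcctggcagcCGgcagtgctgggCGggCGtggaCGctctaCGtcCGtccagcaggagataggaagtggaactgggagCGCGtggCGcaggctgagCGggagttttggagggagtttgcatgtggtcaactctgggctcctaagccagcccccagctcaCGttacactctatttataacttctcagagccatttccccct
INSM2: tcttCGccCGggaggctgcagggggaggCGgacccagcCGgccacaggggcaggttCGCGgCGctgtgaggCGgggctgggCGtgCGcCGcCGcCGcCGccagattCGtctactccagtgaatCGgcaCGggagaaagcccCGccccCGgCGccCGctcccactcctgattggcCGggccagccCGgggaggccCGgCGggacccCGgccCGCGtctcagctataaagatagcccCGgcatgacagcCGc

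The lower genes lie on 14 chromosomes. For each, the measured gene on either side was examined. These 42 neighbours included none past the threshold, against 0.172% of all genes tested. None was seen in both non-target libraries but absent from both con libraries, against 0.236% of genes with at least 20 counts in both non-target libraries. So few neighbours cannot be told apart from those shares. Of these neighbours 24 were tested, with log2 values between -0.42 and 1.27 and a median of 0.15. Both con libraries were below both non-target libraries for 2 of the 24, against 17.5% of all genes tested. A further 12 neighbours had no count in any of the 4 libraries. HOXC12 lies between neighbours seen with both guides: HOXC13, on one side, held 114 and 58 counts with the con guide and 70 and 36 with the non-target guide, and HOXC11, on the other, held 116 and 60 against 52 and 50. On either side of FEZF2, C3orf14 held 62 and 60 counts against 50 and 86, and CADPS was at 0 in all 4. KLF1 lies between DNASE2, at 172 and 204 against 210 and 110 counts, and GCDH, at 74 and 94 against 98 and 80. The lower genes were short, with a median span of 4.15 kb against 32.8 kb for 12685 tested genes with a position, and 11 of the 21 (52.4%) spanned less than 5 kb, against 8.59%.

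Presence and absence were then counted without any scaling. With at least 20 counts in both non-target libraries and none in both con libraries there were 25 genes, 0.236% of the 10576 that reached that count in both non-target libraries. The reverse held for 1 gene, IGFBP6, which encodes a binding protein of insulin-like growth factor 2, 0.00915% of 10923. IGFBP6 held 20 and 20 counts with the con guide and is named after its values were seen. Of the 25, 15 had passed the edgeR test. The other 10 did not pass it. Among them MYF5, a bHLH factor of skeletal muscle, held 32 and 28 counts with the non-target guide, and NANOG, a homeobox factor of pluripotent cells, held 28 and 36 (adjusted p = 0.337 for each). The HOX gene HOXB1 held 42 and 32 (adjusted p = 0.206), the homeobox gene GSX2 34 and 22 (0.509) and the heat shock factor gene HSF5 36 and 20 (0.497). In single pairs of libraries such differences were frequent. Between a con and a non-target library, 41 to 95 genes had at least 20 counts in one and 0 in the other. Within the non-target pair these were 49 and 87 in the opposite directions, and within the con pair 19 and 28. Single-library absences were thus about as common within the non-target pair as between guides. The count of 25 against 1 is of genes on which both replicates of each guide gave the same pattern. It depends on the minimum of 20 counts, and the contrast was less uneven at a minimum of 10 counts, as given in the last section.

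**Figure D3:**
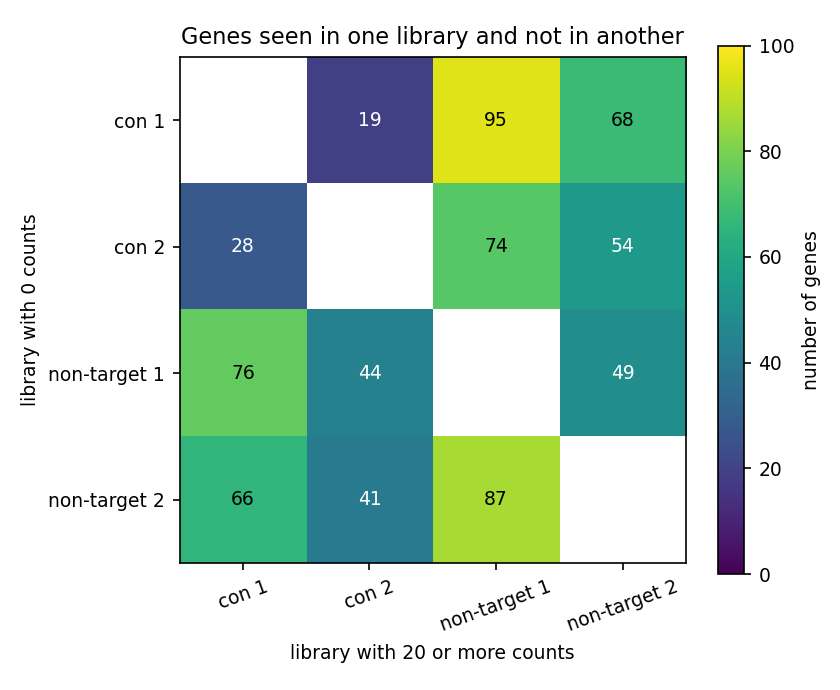
Number of genes with 0 counts in one library (rows) and 20 or more in another (columns), by colour and figure in each cell. The con pair gives 19 and 28 genes, the non-target pair 49 and 87, and pairs across the guides 41 to 95.

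The genes just outside the threshold were of both kinds. GSC2, a homeobox gene, had 0 and 2 counts against 70 and 46 (adjusted p = 0.0753). MYOCD, a coactivator of smooth and heart muscle genes, had none against 32 and 56 (adjusted p = 0.077), RHOXF2 none against 64 and 26, and the forkhead gene FOXB2 none against 60 and 28 (adjusted p = 0.0953 for both). FOXS1, another forkhead gene, had 0 and 16 against 96 and 86 (adjusted p = 0.112). These 5 resemble the genes past the threshold in being near 0 in at least 1 con library. The others were expressed in all 4 libraries. SEMA3C, a secreted axon guidance protein, stood at 14.3 ± 2.34 CPM with the con guide and 46.1 ± 19.3 with the non-target guide (log2 -1.69, SE 0.42, adjusted p = 0.0968). MAP3K3, a kinase upstream of MAP kinases, stood at 72.6 ± 14.8 and 138 ± 19.5 CPM (log2 -0.93, SE 0.23, adjusted p = 0.0968). TBC1D25, a regulator of Rab proteins in autophagy, stood at 37.9 ± 13.4 and 10.1 ± 0.409 CPM (log2 1.91, SE 0.49, adjusted p = 0.125).

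Gene families, listed by symbol, describe how far the pattern reaches. The lists and their members were chosen with earlier results of these data known, so the shares are no independent support for the pattern. In the union of 9 transcription factor lists, 14 of 283 tested members were lower (4.95%, against 0.164% of all genes) and 1, EMX1, was higher, with a median log2 of -0.04 against 0.00 for all genes. Members with at least 20 counts numbered 205 and 211 in the con libraries and 234 and 226 in the non-target libraries, of 389. Over the whole set of tested genes that order did not hold, with 11324 and 11379 against 11280 and 10995. The 14 lower members had under 20 counts in both con libraries and at least 20 in both non-target ones. The difference in detected members of the union thus restates those calls in part. Among homeobox genes outside the HOX clusters, 5 of 125 were lower (MEOX2, LHX5, LMX1A, EVX1 and IRX1) and 1 higher, with a median of -0.01, which is 0.00 under library-size scaling. Among HOX genes 1 of 37 was lower (median -0.15), and 2 of 41 forkhead genes were lower (median -0.12). The 23 KLF and SP genes had 1 lower member, KLF1, and a median of 0.00. Of 15 tested bHLH lineage factors 3 were lower, LYL1 and NEUROD2 among them. Their median of -1.59 moved with single libraries, to -0.26 without non-target replicate 2, -0.97 without con replicate 1 and -2.36 without con replicate 2. Their summed level, which includes the 3 lower genes, was 88.9 and 116 CPM with the con guide and 228 and 220 CPM with the non-target guide. Of the 16 LIM-domain factors and cofactors, 3 were lower (LDB2, LHX5 and LMX1A, median -0.29), and 1 of 14 other blood factors was, GFI1B (median -0.22). In that last list NFE2, a factor of platelet and red cell precursors, had 2 and 4 counts against 66 and 30 (adjusted p = 0.439), and RUNX1, the core factor of blood stem cells, had 139 and 95 against 42 and 42 (log2 1.26, SE 0.42, adjusted p = 0.722). Without non-target replicate 1 the median was 0.125 for the LIM list, 0.03 for the forkhead list and -0.06 for the other blood factors, so the LIM and forkhead medians turned sign. The KLF and SP median ran from -0.15 to 0.25 over the fits without 1 con or non-target library, the HOX median from -0.19 to -0.02 and the other homeobox median from -0.07 to 0.02. No member of the SOX (13 tested, median 0.05, and -0.17 without con replicate 1) or T-box list (10 tested, median 0.30) passed the test, against 0.172% of all genes.

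**Figure D4:**
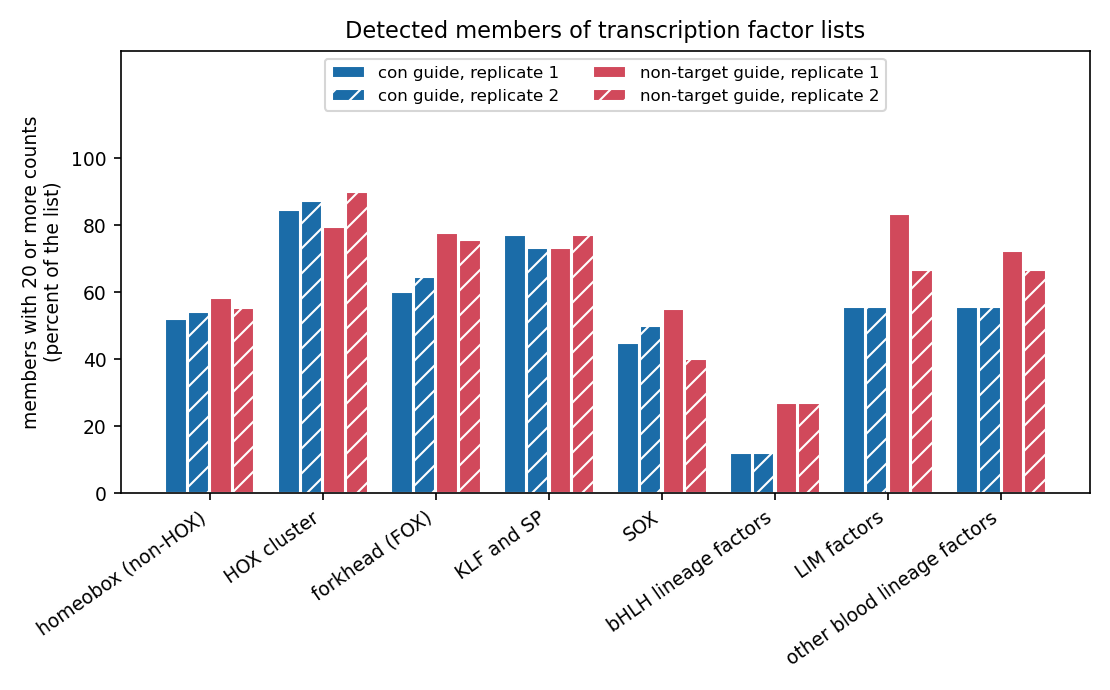
Percent of the members of 8 transcription factor lists with 20 or more counts in each con (blue) and non-target (red) library, replicate 2 hatched. Non-HOX homeobox, forkhead, bHLH, LIM and other blood factors have more detected members in both non-target libraries than in either con library. The HOX, KLF and SP, and SOX lists overlap. Genes past the threshold are counted among these members.

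Among signalling ligands FGF3 was the one past the threshold. It was the 1 lower gene of 6 tested FGF ligands (median 0.17), against 0.164% of all genes tested. This list too was chosen with earlier results known, so the share is no independent support. FGF5 was at 28 and 16 counts against 0 and 2 (adjusted p = 0.905). None of 10 WNT ligands passed, against 0.172% of all genes tested. WNT5A, a ligand of non-canonical WNT signalling, had 64 and 56 counts against 166 and 142 (log2 -1.57, SE 0.44, adjusted p = 0.32). The WNT median was 0.51, and -0.47 when a mean of at least 10 CPM was demanded, -0.05 without non-target replicate 1 and -0.13 without con replicate 2. None of 16 BMP, GDF, nodal and inhibin ligands passed, against the same 0.172% (median -0.04, and 0.27 without non-target replicate 1). The median absolute log2 value was 0.65 for the WNT and 0.46 for the FGF list, against 0.25 for all genes. These lists are too small and too lowly expressed for a median to be precise, or for the absence of a call to be informative.

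Polycomb and DNA methylation genes were measured with better precision. No member passed the test, which 0.172% of all genes tested passed, a share at which lists of this size would seldom hold a call. All 35 Polycomb subunits were tested, with a median log2 of 0.00 and values per library that sum to 3812 and 3836 CPM with the con guide and 3790 and 3664 CPM with the non-target guide. RBBP7, a histone-binding subunit, had 1084 and 833 counts against 657 and 551 (log2 0.46, SE 0.15, adjusted p = 0.722). BCOR, of a variant Polycomb complex, had 1877 and 1772 against 1386 and 1180 (0.30, SE 0.1, adjusted p = 0.777). Among 13 enzymes and readers of DNA methylation (median 0.05), TET2, which oxidises methylcytosine, had 226 and 314 against 484 and 284 (-0.69, SE 0.24, adjusted p = 0.765). UHRF1, which recruits the maintenance methyltransferase, had 829 and 839 against 534 and 595 (0.33, SE 0.16, adjusted p = 0.932). Of 23 histone demethylases and acetyltransferases none passed (median -0.02).

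The m6A enzymes, the object of the series, also gave no call. At the 0.172% of all genes tested, lists this small would seldom hold one. The 11 writer genes had a median of -0.08, the 14 reader genes 0.02, and no member passed. RBM15, which helps bring the writer complex to RNA, had 747 and 797 counts against 1015 and 674 (log2 -0.32, SE 0.15, adjusted p = 0.931). ALKBH5, a demethylase of m6A, had 952 and 694 counts against 564 and 470 (0.46, SE 0.18, adjusted p = 0.79). Both con libraries were above both non-target libraries for ALKBH5, as for 17.3% of all genes tested. FTO, the other demethylase, differed by -0.28 (SE 0.29, adjusted p = 0.988). ACTB, named in the con column heading, held 5289 and 5226 against 4980 and 3868 counts, and the log2 value was 0.05 with a 95% interval of -0.07 to 0.17 (adjusted p = 0.988).

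Among abundant genes the guides gave close values. Of 929 genes with a mean of at least 200 CPM none passed, against 0.172% of all genes tested. None of the 929 differed by more than 1.5-fold, and 90% of the log2 values lay between -0.21 and 0.19. The largest value there was that of RSF1, a chromatin remodelling subunit, at 189 ± 18.9 CPM with the con guide and 267 ± 28.7 CPM with the non-target guide (log2 -0.50, SE 0.15, adjusted p = 0.447). The median SE was 0.13 for these abundant genes, 0.25 from 50 to 200 CPM, 0.44 from 10 to 50 CPM and 1.23 below 10 CPM. A small change in a lowly expressed gene was therefore not detectable at this depth. Of 43 lists 34 had at least 5 tested members, and the stress and growth lists gave no call. Each of them is small enough that it would seldom hold one at the 0.172% of all genes tested. Medians were -0.04 for 26 heat shock genes, 0.01 for 29 immediate early genes, 0.11 for 15 interferon-stimulated genes, and -0.01 for 25 p53 targets, which is 0.00 under library-size scaling. They were 0.01 for 36 ATF4 and unfolded protein response genes, 0.03 for 24 sterol synthesis genes and 0.03 for 20 glycolytic enzymes. For proliferation they were -0.04 for 43 DNA replication genes and 0.07 for 36 mitosis genes, and for 84 ribosomal protein genes 0.00. DUSP2, an immediate early phosphatase gene, had 20 and 18 counts against 0 and 0 (adjusted p = 0.787), and CDC6, which loads the replicative helicase, 410 and 540 against 698 and 498 (-0.53, SE 0.18, adjusted p = 0.765).

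Marker lists were used to check the labelled cell type. The 11 genes of the HEK293 list, among them VIM (2628 and 2630 counts against 2990 and 2144), NEFM (688 and 864 against 789 and 581) and CDH2 (490 and 522 against 521 and 356), summed to 1280 and 1361 CPM with the con guide and 1434 and 1360 with the non-target guide. The pluripotency list of 6 genes summed to 1.58 and 7.97 CPM against 13 and 20.7 CPM. NANOG was seen with the non-target guide only, LIN28A held 0 and 18 counts against 20 and 20, DPPA4, ZFP42 and TDGF1 were at 0 in all 4 libraries, and POU5F1 held 6 and 12 counts against 0 and 4. The 7 fibroblast markers summed to 36.3 and 33.7 CPM against 54.1 and 55.3 CPM. COL1A1 held 102 and 75 counts against 182 and 124, and COL1A2 and DCN were at 0. LUM went the other way, at 18 and 12 counts against 0 and 2. COL3A1 held 14 and 32 against 9 and 34, PDGFRB 4 and 4 against 8 and 0, and FAP 0 and 4 against 0 and 0. The 7 neuron markers summed to 34.5 and 32.4 against 27.2 and 34.6 CPM. White blood cell markers summed to 19.5 and 11.2 against 14.7 and 15.2 CPM with PTPRC, CD3E and LYZ at 0. Endothelial markers summed to 3.68 and 2.66 against 2.17 and 7.6 CPM with CDH5 at 0. Epithelial markers summed to 10.5 and 8.76 against 4.89 and 8.29 CPM with KRT5, KRT14, KRT7 and KRT19 at 0.

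Some of these calls were lost when 1 library was left out. Such a fit keeps 1 library for a guide, which is assumed to vary like the others, so a lost call does not show that a gene was seen in 1 library only. FEV and IRX1 lost theirs whichever of the 4 libraries was removed, although both non-target libraries held them. FEZF2, KLF1, INSM2, HOXC12, FOXE3, MEOX2, FOXI1, LHX5 and EMX1 passed under all 15 alternative fits. Without non-target replicate 1 only 10 genes passed, and the edgeR adjusted p rose to 0.0517 for HBG1, 0.0617 for FGF3, 0.109 for HNF4A and 0.198 for LYL1. It rose to 0.373 for EVX1, 0.377 for NEUROD2, 0.475 for LMX1A and GFI1B, 0.533 for FEV and 0.557 for IRX1. Without non-target replicate 2 the calls of LDB2 (0.0801), NEUROD2 (0.0825), HBG1 (0.117), FEV (0.152) and IRX1 (0.282) were lost, and 6 genes were higher instead of 1. Without con replicate 1 those of LMX1A (0.0575), GFI1B (0.292), FEV (0.361) and IRX1 (1) were lost. Without con replicate 2 those of LMX1A (0.0557), NEUROD2 (0.156), GFI1B (0.258), FEV (0.305) and IRX1 (0.645) were lost. With all 9 libraries in the fit EVX1 (0.055), LMX1A (0.0765), NEUROD2 (0.2), GFI1B (0.206), FEV (0.242) and IRX1 (0.515) lost theirs, and IRX1 also with a replicate block (0.101). KDM5D lost its call in 4 of these fits. None of the named genes past the threshold changed sign.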

How the data were processed

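The authors deposited whole-number read counts per gene symbol, with no normalization that the values show. Among tools, cutadapt 4.3, STAR 2.7.10b and deepTools are listed in the submitters' processing notes, with the build hg38 and no roles. How reads were counted, by which annotation and with what strand setting is not given in the sources used here, so overlapping genes may share reads. Groups come from the sample titles.

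Counts were tested with edgeR 4.0.16 in R 4.3.3 (filterByExpr by group, TMM, quasi-likelihood F test, two-sided, Benjamini-Hochberg over 12808 genes, threshold 0.05) in 1 fit of the 6 sgRNA libraries, which was also tested on simulated counts. SE is the fold change over the root of F. Folds against 0 use 3 counts over the group, and ratios with 1 to 3 counts carry exact 95% intervals. Alternatives were DESeq2 1.42.0, other scalings, filters, fits, halved counts, a replicate block and left-out libraries. Named were genes past the threshold (up to 15 per direction), the 8 next by p, list members past the threshold, up to 4 members of other lists by p, and ACTB. INSM2, HNF4A, NFE2, RUNX1, FGF5, and the one-guide-only, neighbouring and marker genes fall outside it and were named after their values were seen. Values of KDM5D are not given, and 1 further gene past the threshold and some other genes are not reported here. The members and lists were chosen with earlier results of these data known. Of 19969 symbols, 19283 matched RefSeq (GRCh38.p14).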

Additional observations from a re-analysis of the deposited data

How the results depend on the processing

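The count of 22 calls was 38 in DESeq2 (0.297% of genes), 35 lower and 3 higher. It ran from 10 to 27 when 1 library was left out at a time, with 9 to 26 lower and 1 to 6 higher. The lowest count came without non-target replicate 1 and the 6 higher genes without non-target replicate 2. No other alternative moved the count by over 1.5 times. For genes present with one guide only, a minimum of 50 counts gave 10 for the non-target guide and 0 for the con guide, against 25 and 1. A minimum of 10 counts gave 29 and 12, and a limit of at most 2 counts in place of 0 gave 36 and 2. With the replicate number as a block 22 genes passed. Same-numbered con and non-target libraries showed no shared deviation (r = -0.0177 across 8692 genes of at least 20 CPM), so the numbers were not used to pair them; how the replicates were made was not given. FEV, IRX1, GFI1B and KDM5D were not tested when a mean of at least 10 CPM was demanded. Depth limits genes below 10 CPM, whose median SE was 1.23.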
